A study of Mus musculus and Homo sapiens with 180 samples.

Results

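SERPINB1, SERPINB2, SERPINB6, SERPINB8, SERPINB9 and SERPINB10 are 6 human genes of serpin clade B. They were followed as 6 of the 80845 gene names in the human count tables, and 4 of them (Serpinb2, Serpinb8, Serpinb9 and Serpinb10) have a row of the same name among the 24413 names of the mouse tables. The genes were chosen by their expression across lines, genotypes and drugs, with earlier results of these data known. The values under an inhibitor and in knockout cells that follow are therefore descriptions. Calls in those comparisons stand beside the share of all genes called, with no p printed, and nothing is supported by them.

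Serpins inhibit proteases by a suicide mechanism, in which the protease cuts an exposed loop of the serpin and is trapped in a covalent complex. Clade B members mostly lack a classical secretion signal and act within the cytosol and nucleus, where they shield cells such as granulocytes, monocytes and killer lymphocytes from their own granule proteases. SERPINB1 inhibits neutrophil elastase, cathepsin G and proteinase 3, SERPINB2 (plasminogen activator inhibitor 2) inhibits urokinase, SERPINB6 inhibits cathepsin G and trypsin-like proteases, SERPINB8 inhibits furin, SERPINB9 inhibits granzyme B, and SERPINB10 (bomapin) is a nuclear serpin of myeloid cells.

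The study used 3′ RNA sequencing to ask how leukaemia cells respond to SGC0946, an inhibitor of the H3K79 methyltransferase DOT1L, and to VTP50469, an inhibitor of the MLL partner menin, with and without PRC1.1, a Polycomb complex that contains PCGF1 and BCOR. MOLM13 and MV4;11 are human acute myeloid leukaemia lines with an MLL fusion. Both carried Cas9 and a guide RNA in every group, the control guide included. MOLM13 was measured as control, PCGF1 KO and BCOR KO cells, and MV4;11 as control and PCGF1 KO cells, each under DMSO, 5 µM SGC0946 (72 h) or 500 nM VTP50469 (48 h), with n = 3 per group. The MOLM13 knockouts were polyclonal, from 1 guide each, and the MV4;11 PCGF1 KO libraries came from 1 clone. A second MOLM13 experiment compared control with PCGF1/BCOR KO cells under DMSO, after 96 h of 500 nM VTP50469, and 48 h or 96 h after its withdrawal (n = 3). K562 (a BCR-ABL erythroleukaemia line) and HuDEP-2 (an immortalised human erythroid progenitor line) received DMSO or 5 µM SGC0946 for 168 h (n = 4). In a further HuDEP-2 experiment, cells pretreated for 7 days with DMSO or SGC0946 were kept undifferentiated or differentiated for 72 h (n = 3). Murine MLLAF9 cells, c-KIT+ bone marrow cells transformed with FLAG-MLLAF9, were studied in 2 experiments (n = 3). The first, used here for its control cells, compared DMSO with SGC0946 (3 µM, 72 h) and with VTP50469 (300 nM, 8 h and 48 h). The withdrawal experiment compared control with PCGF1 KO cells under DMSO, at 8 h and 48 h of the same VTP50469 dose, 24 h after the shorter treatment ended, and 24 h, 48 h and 72 h after the longer one ended. Its knockout columns name no gene and were taken as PCGF1 KO by elimination, and its columns marked D were taken as DMSO. The paper describes the murine cells as carrying a PCGF1 guide or a non-silencing control guide. Mouse embryonic stem cells (ESC) received DMSO or 5 µM SGC0946 for 168 h (n = 4).

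Levels are CPM (read counts scaled to the same total of 1000000 per library) on TMM-scaled library totals, and each table was normalised on its own, so levels set across lines are only approximate. A gene is said to be called where edgeR's quasi-likelihood test gave an adjusted p under 0.05 over all genes tested in that comparison; differences are log2 fold changes ± SE. The study describes the replicates of its leukaemia and K562 sequencing as biological, while the labels name no separate cultures, so p-values measure the spread between libraries, which may be technical. Per library, total counts on genes were 4283204 to 6330489 in the MOLM13 knockouts, 3043816 to 5812045 in MV4;11, 5216015 to 13681475 in the erythroid experiments and 2203252 to 8843007 in murine MLLAF9 cells. They ranged from 491592 to 47065530 in the MOLM13 withdrawal experiment and from 34303 to 8499627 in ESC, with 1 library under 1000000 in each. In MOLM13, PCGF1 stood at 7.17 to 8.4 CPM in control and 3.36 to 8.06 CPM in PCGF1 KO cells under DMSO, and BCOR at 45.2 to 55.9 CPM in control and 97.7 to 111 CPM in BCOR KO cells. Reads at the 3′ end lie outside a guide's cut, so these levels check neither knockout.

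The 6 genes sit in 2 clusters on the human genome (GRCh38, GENCODE release 44). SERPINB1 (chromosome 6, 2832332 to 2841959), SERPINB9 (2887270 to 2903309) and SERPINB6 (2948159 to 2972165) lie side by side on the minus strand. SERPINB2 (chromosome 18, 63871692 to 63903888), SERPINB10 (63907958 to 63936111) and SERPINB8 (63970029 to 64019779) follow each other on the plus strand. HMSD overlaps SERPINB8 on the same strand, and reads there cannot be split between them; HMSD itself was at most 0.4 CPM.

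The clusters also differ at their promoters, which were read for all 6 genes. Windows ran from 250 bases before to 50 after the start of GENCODE's MANE Select transcript, the transcript chosen to represent a gene (GRCh38). That start can lie inside the gene span given above, as in SERPINB2. SERPINB10 had 0 CpG and 35.3% GC, SERPINB2 1 CpG and 39% GC, and SERPINB8 9 CpG and 48.7% GC. The chromosome 6 members were CpG-rich, with 27 in SERPINB1, 32 in SERPINB6 and 35 in SERPINB9. Over all 19060 promoters the median was 23 CpG and 63.7% GC. Fewer CpG than SERPINB2 were held by 1.71% of promoters, than SERPINB10 by 0.0% and than SERPINB8 by 23.1%. For SERPINB1, SERPINB6 and SERPINB9 this share was 58.5%, 71.9% and 78.6%. Searched on both strands, the AP-1 motif TGANTCA stood once in SERPINB2, once in SERPINB10 and 2 times in SERPINB8 (5.42% of all promoters hold it). The C/EBP half-site pattern TTGCNNAA stood once in SERPINB10 and once in SERPINB8 (8.06%), and the PU.1 core GAGGAA once in SERPINB8 (27.3%). TATAAA stood once in SERPINB9 and once in SERPINB2 (9.52%). In SERPINB8 TATAAA was counted 2 times, from overlapping letters of the same site read on both strands. The GATA motif AGATAA (7.08%) was in none of the 6 windows. These are matches of letters and no evidence of binding.

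In MOLM13 control cells the members farthest from DMSO under either drug were the neighbours SERPINB2 and SERPINB10, which had hardly any reads under DMSO. SERPINB2, the urokinase inhibitor, had 0 counts in all 9 DMSO libraries of the 3 genotypes. In control cells it reached 8.95, 9.38 and 10.3 CPM under SGC0946 (48, 50 and 59 counts) and 5.39, 8.63 and 11 CPM under VTP50469. Against the DMSO group at 0, taken at a floor of 3 counts over the group, this was at least 53.5-fold higher under SGC0946 and at least 47.2-fold higher under VTP50469. SERPINB10, the nuclear serpin, was at 0.707, 0.4 and 0.163 CPM under DMSO (4, 2 and 1 counts), at 18.7, 19.3 and 14.7 CPM under SGC0946 and at 24.7, 30 and 25.7 CPM under VTP50469. Its log2 fold change was 5.32 ± 0.38 under SGC0946 and 5.93 ± 0.36 under VTP50469. For both genes every drug library lay above every DMSO library. Both genes passed the filter on low counts only through the drug groups in which they are high.

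SERPINB8, the furin inhibitor, was already well expressed and moved far less. Its control libraries read 28.3, 32.2 and 22.5 CPM under DMSO, 42.3, 37.1 and 42.6 CPM under SGC0946 and 32.5, 35.4 and 41.9 CPM under VTP50469. The difference from DMSO was 0.56 ± 0.16 under SGC0946, which was called, and 0.41 ± 0.16 under VTP50469, which was not. SERPINB1, the elastase and cathepsin G inhibitor, stayed between 76.1 and 122 CPM over all 27 libraries and was not called under either drug (0.20 and 0.21 in control cells). SERPINB6 had at most 3 counts and SERPINB9 at most 1 count in any MOLM13 library of this experiment, and neither was tested. In control cells, 13.0% of all genes tested were called under SGC0946 and 16.5% under VTP50469.

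**Figure D1:**
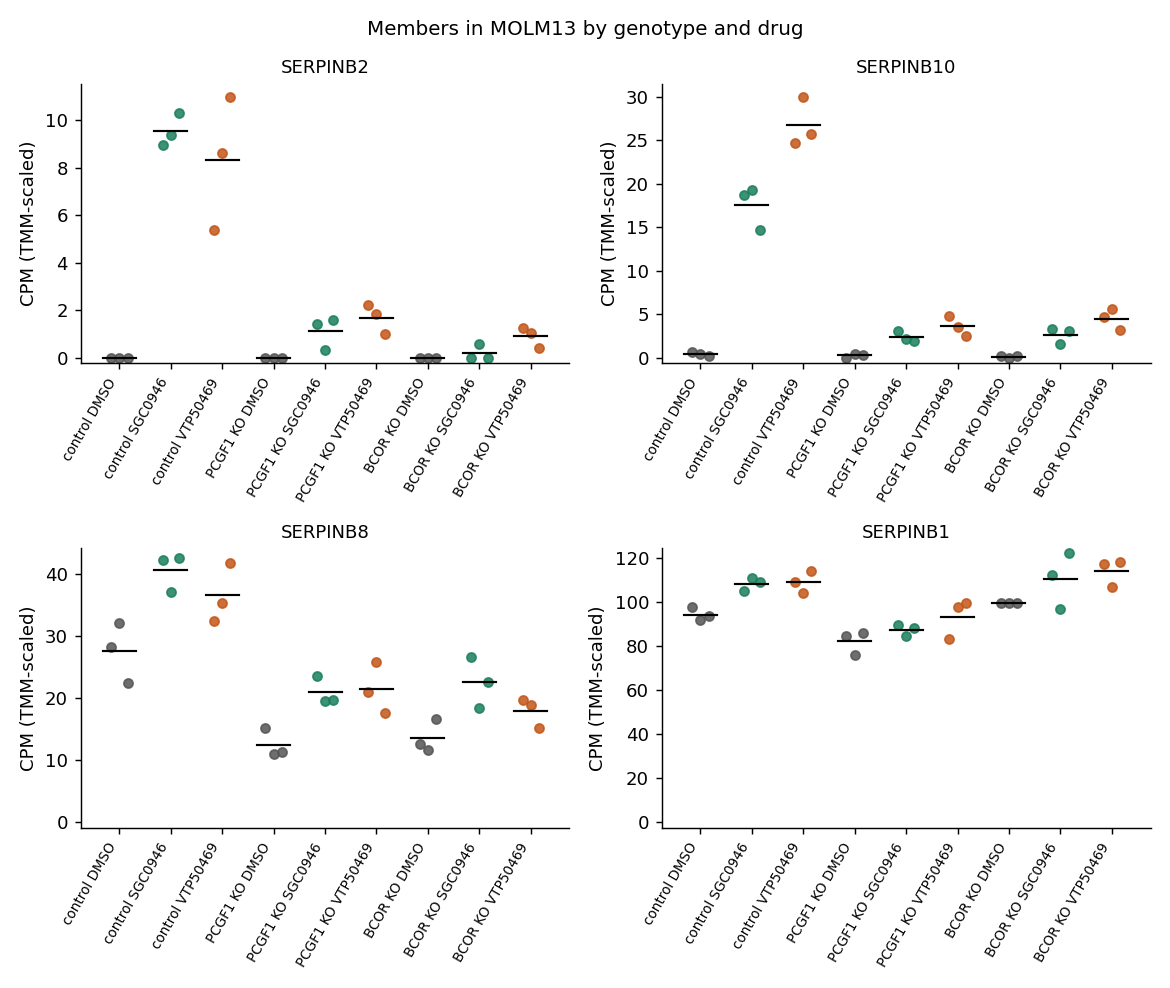
CPM of SERPINB2, SERPINB10, SERPINB8 and SERPINB1 in MOLM13 (vertical axis, from 0, one scale per gene) by genotype and drug (horizontal axis); points are libraries (n = 3 per group) and lines are group means. SERPINB2 is at 0 in every DMSO group, SERPINB10 under SGC0946 is at 14.7 to 19.3 in control and 1.94 to 3.07 in PCGF1 KO libraries, and SERPINB8 is lower in both knockouts than in control cells under each treatment.

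Both knockouts had lower SERPINB2 and SERPINB10 under the drugs than control cells. SERPINB2 in PCGF1 KO cells read 1.42, 0.314 and 1.59 CPM under SGC0946 (6, 2 and 9 counts) and 2.2, 1.85 and 1 CPM under VTP50469. In BCOR KO cells it read 0, 0.585 and 0 CPM under SGC0946 (3 counts in all) and 1.23, 1.05 and 0.419 CPM under VTP50469. Against control cells the difference was -3.14 ± 0.47 and -2.31 ± 0.43 in PCGF1 KO cells (SGC0946, then VTP50469) and -5.44 ± 0.63 and -3.15 ± 0.48 in BCOR KO cells, all called and without overlap of libraries. It was still above DMSO in PCGF1 KO cells, at least 5.46-fold under SGC0946 and at least 8.71-fold under VTP50469, and at least 5.19-fold under VTP50469 in BCOR KO cells. These 3 drug differences were called, and that of BCOR KO cells under SGC0946 was not. They rest on few counts: the calls for PCGF1 KO cells under SGC0946 and BCOR KO cells under VTP50469 were each lost when any 1 of the 3 DMSO libraries was left out, the first also without SGC0946 replicate 1 or 3 and the second without VTP50469 replicate 1 or 2.

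SERPINB10 was also still above DMSO in knockout cells under both drugs. In PCGF1 KO cells it went from 0, 0.447 and 0.314 CPM under DMSO to 3.07, 2.2 and 1.94 CPM under SGC0946 (3.09 ± 0.58) and 4.78, 3.52 and 2.51 CPM under VTP50469 (3.70 ± 0.53). In BCOR KO cells it went from 0.193, 0 and 0.18 CPM to 3.33, 1.56 and 3.04 CPM (4.23 ± 0.64) and 4.73, 5.58 and 3.14 CPM (5.00 ± 0.57). All 4 drug differences were called. The difference from control was -2.89 ± 0.28 and -2.90 ± 0.25 (PCGF1 KO) and -2.72 ± 0.28 and -2.56 ± 0.25 (BCOR KO) under SGC0946 and VTP50469, all called and without overlap, and was not called under DMSO (-0.66 ± 0.82 and -1.63 ± 0.93). The size of the drug response itself was not called different from control for SERPINB10 in either knockout (-2.22 ± 1.03 and -2.23 ± 1.02 in PCGF1 KO, -1.09 ± 1.45 and -0.92 ± 1.48 in BCOR KO), where each DMSO group holds 7 counts or fewer. For SERPINB2, with every DMSO library at 0, that difference of responses cannot be estimated.

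SERPINB8 was lower in knockout cells also without drug. PCGF1 KO cells read 15.3, 11 and 11.3 CPM under DMSO, 23.6, 19.6 and 19.8 CPM under SGC0946 and 21.1, 25.8 and 17.7 CPM under VTP50469. BCOR KO cells read 12.7, 11.7 and 16.6 CPM, 26.7, 18.5 and 22.6 CPM, and 19.8, 19 and 15.3 CPM. Against control cells SERPINB8 fell by 1.14 ± 0.18, 0.96 ± 0.17 and 0.77 ± 0.17 in PCGF1 KO cells and by 1.01 ± 0.18, 0.85 ± 0.17 and 1.02 ± 0.17 in BCOR KO cells (DMSO, SGC0946 and VTP50469), each called and without overlap. Under drug it was called higher than DMSO in PCGF1 KO cells (0.74 ± 0.19 and 0.79 ± 0.18) and in BCOR KO cells under SGC0946 (0.73 ± 0.18), but not in BCOR KO cells under VTP50469 (0.41 ± 0.18). All 4 of these SERPINB8 drug calls, the control one included, depended on single libraries. They were lost without DMSO replicate 3 or SGC0946 replicate 1 or 3 in control cells, without DMSO replicate 2 or 3 or SGC0946 replicate 1 (SGC0946 call) and DMSO replicate 3 or VTP50469 replicate 2 (VTP50469 call) in PCGF1 KO cells, and without DMSO replicate 1 or 2 or SGC0946 replicate 1 or 3 in BCOR KO cells. SERPINB1 was called lower than control in PCGF1 KO cells under SGC0946 (-0.31 ± 0.08), a call lost under library size scaling and without replicate 2 of either group, but not under DMSO (-0.20 ± 0.09) or VTP50469 (-0.22 ± 0.08), and was not called in BCOR KO cells.

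Over the 4 members tested, 15 of 24 drug comparisons were called, all higher than DMSO, and 15 of 24 genotype comparisons, all lower than control. The share of all genes called was 3.11% and 8.26% in PCGF1 KO cells (SGC0946, VTP50469), 4.40% and 7.24% in BCOR KO cells, 13.8%, 11.1% and 11.4% for PCGF1 KO against control (DMSO, SGC0946, VTP50469) and 7.04%, 7.09% and 7.22% for BCOR KO against control. None of the 12 differences of response that could be estimated, which leave out SERPINB2, was called, with 0.651% and 0.371% of all genes called for PCGF1 KO and 0.247% and 0.0906% for BCOR KO. At an unadjusted p under 0.05, 2 of the 12 passed in edgeR (SERPINB10 in PCGF1 KO cells under each drug), and DESeq2 called 0.

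Myeloid differentiation markers moved in the same groups. Of 19 markers, 12 were tested, and 11 were higher in control cells under SGC0946 and 11 under VTP50469 (medians of 2.25 and 2.43, against 0.0 and -0.01 over all genes tested), with none lower. Their summed level was 142 to 161 CPM in control DMSO libraries, 499 to 537 CPM under SGC0946 and 623 to 644 CPM under VTP50469. The sums were 160 to 162, 301 to 313 and 465 to 493 CPM in PCGF1 KO cells and 118 to 121, 199 to 228 and 281 to 303 CPM in BCOR KO cells, and FCN1 and S100A12 were at 0 throughout. Their part in the serpin values was not tested. In bulk RNA, fewer cells that express a gene and less RNA per cell cannot be told apart. Lymphoid markers, of interest for SERPINB9, summed to 7.83 to 27 CPM.

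Proteases, other protease inhibitors and the genes around the members were also read. The proteases listed go beyond the targets of the members given above. Of 24 listed, 17 were tested in MOLM13 control cells. Under SGC0946 1 was higher (CTSB, cathepsin B, 0.40 ± 0.08) and under VTP50469 5 were higher, with 0 lower in both. The 5 were FURIN, the target of SERPINB8 (0.61 ± 0.17), CTSG, cathepsin G (0.48 ± 0.09), CTSB (0.42 ± 0.08), CTSS, cathepsin S (0.35 ± 0.11) and CASP4, an inflammatory caspase (0.30 ± 0.09). Of 13 other protease inhibitors, 10 were tested, with 4 higher and 2 lower under SGC0946 and 4 higher and 1 lower under VTP50469. SLPI, a secreted inhibitor of neutrophil elastase, was the largest of them at 3.21 ± 0.11 and 3.35 ± 0.11, with CST3 (cystatin C) at 0.95 ± 0.09 and 0.87 ± 0.09 and TIMP1, a metalloprotease inhibitor, at 0.73 ± 0.10 and 0.82 ± 0.10. In PCGF1 KO against control cells under DMSO, 3 of the 17 proteases were higher, the cathepsins CTSH (1.88 ± 0.34), CTSL (0.97 ± 0.20) and CTSB (0.66 ± 0.08), and 1 was lower, CTSG (-0.68 ± 0.09). Of the 10 other inhibitors 6 were higher, SLPI (2.40 ± 0.11) among them, and 2 were lower, CST7, a cystatin of leukocytes (-2.41 ± 0.18), among them. SERPINE2, a serpin outside clade B that inhibits thrombin and urokinase outside the cell, was higher by 3.79 ± 0.70. None of 7 further clade B genes of the 2 clusters had enough reads to be tested. Of 7 genes neighbouring the chromosome 18 cluster 5 were tested, and BCL2, the apoptosis inhibitor, was the 1 called (-0.73 ± 0.09 and -0.82 ± 0.09); of 9 neighbouring the chromosome 6 cluster 6 were tested, with 0 and 1 called.

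As a description, the pattern of each member over the 9 MOLM13 groups was set beside those of 9217 genes by Pearson's r of log2(CPM + 1) group means, which share libraries and depth. SERPINB2 was most like SLC38A9 (0.978), CD38 (0.968) and RAB8B (0.964), and SERPINB10 most like ZFP36L2 (0.981), CITED2 (0.98) and TXLNGY (0.977). SERPINB8 was most like CLCN4 (0.991), RPL15 (0.987) and RPL7 (0.984), and SERPINB1 most like ING4 (0.976), IER5 (0.969) and ATP2A3 (0.963).

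MV4;11 cells showed SERPINB2 and SERPINB10 at lower levels under the drugs and, unlike MOLM13, expressed SERPINB6. SERPINB2 was again at 0 counts in all DMSO libraries. In control cells it read 2.36, 1.15 and 1.33 CPM under SGC0946 and 2.02, 1.39 and 4.13 CPM under VTP50469, at least 7.07-fold and at least 11.2-fold higher, both called. In PCGF1 KO cells it read 0, 0.364 and 0.855 CPM and 0.284, 0.473 and 0.444 CPM, and neither was called over DMSO. The knockout differed from control by -1.88 ± 0.71 under SGC0946, which was not called, and by -2.54 ± 0.74 under VTP50469, which was called; this call was lost with DESeq2 and without control VTP50469 replicate 3 or any 1 of the 3 PCGF1 KO VTP50469 libraries.

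SERPINB10 was called over DMSO in MV4;11 control cells under both drugs and in PCGF1 KO cells under VTP50469. Control libraries read 0.407, 0.49 and 0 CPM under DMSO, 6.85, 6.87 and 6.86 CPM under SGC0946 (4.41 ± 0.54) and 6.28, 2.78 and 4.96 CPM under VTP50469 (3.88 ± 0.58). PCGF1 KO libraries read 0 in all 3 under DMSO, 0.176, 0.364 and 0.342 CPM under SGC0946 and 3.12, 2.36 and 2 CPM under VTP50469, at least 11.9-fold higher than DMSO under VTP50469, which was called, and not called under SGC0946. Under SGC0946 the knockout differed from control by -4.42 ± 0.51, called and with no overlap, and under VTP50469 by -0.93 ± 0.40, not called, with overlapping libraries. The doses and times of the drugs differ, and the difference of the 2 knockout effects was not tested. Both SERPINB2 and SERPINB10 passed the filter on low counts in MV4;11 only through the drug groups in which they are high.

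**Figure D2:**
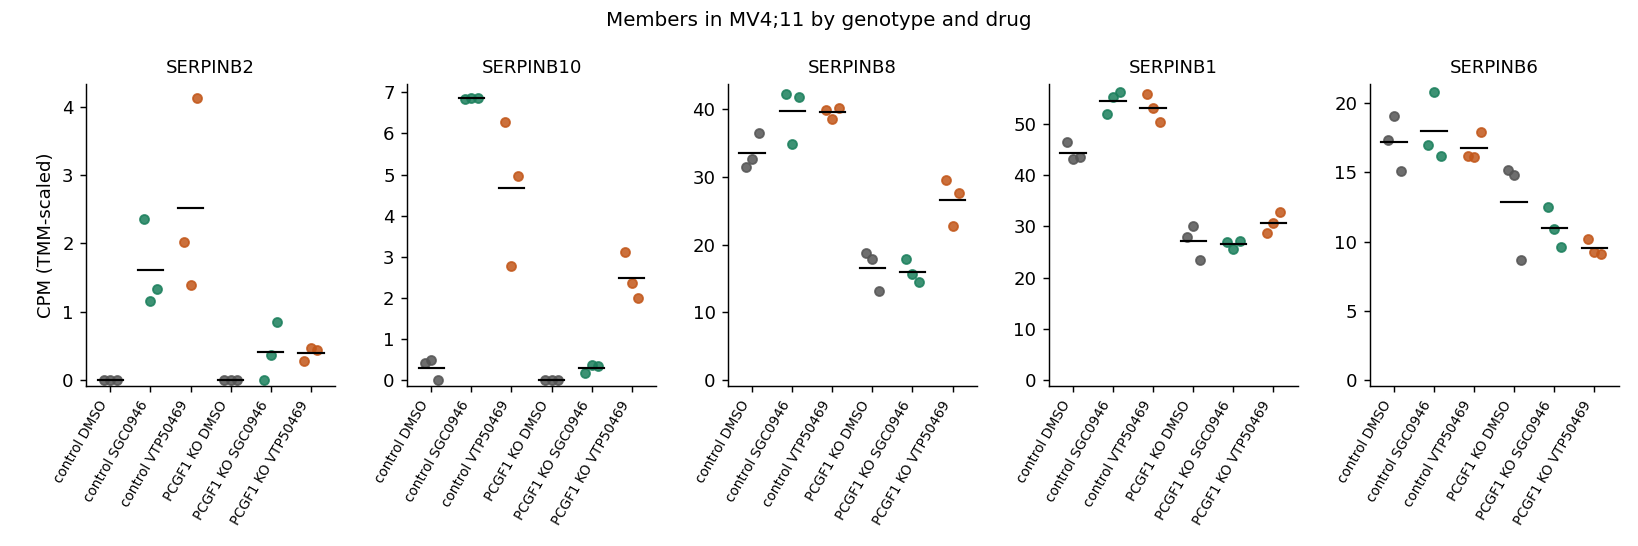
CPM of 5 members in MV4;11 (vertical axis, from 0, one scale per gene) by genotype and drug (horizontal axis); points are libraries (n = 3 per group) and lines are group means. SERPINB10 under SGC0946 is at 6.85 to 6.87 in control libraries and at most 0.364 in PCGF1 KO libraries, and SERPINB8 and SERPINB1 are lower in PCGF1 KO cells under every treatment.

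The 3 members with steady expression in MV4;11 were lower in PCGF1 KO cells. SERPINB8 read 31.4, 32.6 and 36.5 CPM in control and 18.7, 17.9 and 13.1 CPM in PCGF1 KO cells under DMSO, and fell by 1.0 ± 0.15, 1.31 ± 0.14 and 0.58 ± 0.14 (DMSO, SGC0946 and VTP50469), all called. SERPINB1 read 46.4, 43.1 and 43.6 CPM in control and 27.9, 30.1 and 23.4 CPM in PCGF1 KO cells under DMSO, and fell by 0.70 ± 0.12, 1.04 ± 0.11 and 0.79 ± 0.12, all called. SERPINB6, which blocks cathepsin G, read 17.3, 19.1 and 15.1 CPM in control and 15.2, 14.8 and 8.65 CPM in PCGF1 KO cells under DMSO; its difference was -0.40 ± 0.18 there, not called, and -0.71 ± 0.18 and -0.81 ± 0.20 under the drugs, both called. SERPINB9 had at most 2 counts per library. Of SERPINB1, SERPINB6 and SERPINB8, the 1 drug call was SERPINB8 in PCGF1 KO cells under VTP50469 (0.67 ± 0.15).

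In MV4;11, 6 of 20 drug comparisons of the 5 tested members were called, all higher, and 10 of 15 genotype comparisons, all lower. The share of all genes called under SGC0946 and VTP50469 was 12.2% and 21.0% for control and 4.96% and 21.5% for PCGF1 KO libraries, and it was 16.3%, 18.4% and 8.49% for PCGF1 KO against control. None of the 8 differences of response that could be estimated, which leave out SERPINB2, was called (0.240% and 1.91% of all genes), and SERPINB10's fitted value there depends on the prior count, since its PCGF1 KO DMSO group is at 0. At an unadjusted p under 0.05, 1 passed in edgeR (SERPINB8 under VTP50469), and DESeq2 called 0. Scaling by library size alone moved the median of all genes by 0.32, 0.23 and 0.30 in the genotype comparisons and by -0.41 and -0.45 under VTP50469, and under it 5 calls of SERPINB1, SERPINB6 and SERPINB8 were lost. The genotype calls of SERPINB6 under SGC0946 and SERPINB8 under VTP50469 were also lost without control SGC0946 replicate 2 and PCGF1 KO VTP50469 replicate 2, in that order. It also turned the uncalled VTP50469 differences of SERPINB1 (0.26 to -0.16) and SERPINB8 (0.24 to -0.18) in control cells. Myeloid marker sums were 71.0 to 81.5, 115 to 121 and 193 to 211 CPM in control cells and 32.8 to 35.8, 59.1 to 65.3 and 85.8 to 102 CPM in PCGF1 KO cells (DMSO, SGC0946, VTP50469), with CD68, FCN1, S100A12 and LTF at 0; their part in these values was not tested.

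The withdrawal experiment asked whether expression returns once VTP50469 is removed, and its comparisons after withdrawal were not used to choose the genes. Every SERPINB10 library 96 h after withdrawal lay above all DMSO libraries. The DMSO levels set against them were among the values by which the genes were chosen. SERPINB10 and SERPINB2 passed the filter on low counts here only through drug and withdrawn libraries. A difference from DMSO is therefore in part built into their being tested. Values without the filter are given beside them. They remove that step only, as the genes stay chosen by these DMSO levels, and are no stronger support. Control libraries read 1.24, 1.35 and 0.399 CPM under DMSO, 13.5, 6.28 and 17.2 CPM after 96 h of drug (3.63 ± 0.65 against DMSO), 13.4, 22.3 and 29.7 CPM 48 h after withdrawal and 3.06, 31.4 and 16.8 CPM 96 h after withdrawal. The control libraries at both times off drug lay above all DMSO libraries. The difference from DMSO was 4.44 ± 0.66 at 48 h off drug (edgeR adjusted p = 0.000545) and 4.12 ± 0.66 at 96 h off drug (adjusted p = 0.00107). Without the filter SERPINB10 had an edgeR adjusted p of 3.6e-10 and 5.86e-09. When only those 6 libraries were fitted, the adjusted p at 96 h off drug was 0.1.

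PCGF1/BCOR KO cells gave like values for SERPINB10. They read 1.34, 1.71 and 2.24 CPM under DMSO, 30.8, 14.3 and 25.9 CPM after 96 h of drug (3.78 ± 0.64), 17.5, 23.9 and 50.9 CPM at 48 h off drug and 23.8, 17.8 and 18.1 CPM at 96 h off drug. Against DMSO the difference was 4.12 ± 0.65 (edgeR adjusted p = 0.00121) and 3.49 ± 0.63 (adjusted p = 0.0123), with no overlap. Without the filter the adjusted p in edgeR was 4.9e-09 and 2.95e-06. Leaving out any 1 of the 3 KO DMSO libraries took the 96 h call away, with an adjusted p of up to 0.0894. Against the end of treatment SERPINB10 was not called at either time in control (0.81 ± 0.58, edgeR adjusted p = 1.0, and 0.49 ± 0.58, adjusted p = 0.741) or in KO cells (0.34, adjusted p = 0.988, and -0.29, adjusted p = 0.793).

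SERPINB2 kept to the same order in control cells. It read 0, 0.27 and 0.0996 CPM under DMSO, 3.25, 1.57 and 1.58 CPM after 96 h of drug (4.08 ± 1.21, a call lost without DMSO replicate 1 or 3 or drug replicate 1), 8.68, 7.78 and 3.07 CPM at 48 h off drug and 1.84, 5.55 and 4.15 CPM at 96 h off drug. Against DMSO it was higher by 5.66 ± 1.27 at 48 h off drug (edgeR adjusted p = 0.00737) and by 4.94 ± 1.24 at 96 h off drug (adjusted p = 0.0338); without the filter the adjusted p was 0.000282 and 0.00299. The 96 h call was lost when only the 6 libraries were fitted and without any 1 of the 3 control DMSO libraries or replicate 3 of the withdrawn group. In KO cells SERPINB2 read 0.204, 0.874 and 0.101 CPM under DMSO, 1.01, 0 and 3.27 CPM after 96 h of drug (2.06 ± 1.13, not called, and 2.69, called, with the replicate number as a block), 2.06, 3.38 and 2.05 CPM at 48 h off drug and 0.958, 7.54 and 0.318 CPM at 96 h off drug, with differences of 2.64 ± 1.1 (adjusted p = 0.0975) and 2.87 ± 1.1 (adjusted p = 0.25). Without the filter these were 0.0913 and 0.252. With the same block, the 48 h difference in KO cells was 2.95 (adjusted p = 0.0228).

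SERPINB8 was lower after the longer treatment. Control libraries read 50.9, 77 and 69.6 CPM under DMSO and 16.6, 31 and 28.1 CPM after 96 h of drug (-1.39 ± 0.60, not called), and KO libraries read 53.4, 79.6 and 68.8 CPM and 16.3, 12.7 and 29.5 CPM (-1.75 ± 0.62, called), with no overlap in either. The KO call was lost under library size scaling, with DESeq2 and without any 1 KO DMSO library, drug replicate 1 or drug replicate 2, the library under 1000000 counts. The control difference was called with the replicate number as a block (-1.44 ± 0.38). At 96 h off drug SERPINB8 read 12.9, 79 and 92.6 CPM in control cells and 23.3, 92.4 and 72 CPM in KO cells, and the differences from DMSO were -0.09 (edgeR adjusted p = 0.947) and -0.11 (adjusted p = 0.96). The difference in KO cells from the end of treatment to 96 h off drug was 1.64 ± 0.62 (adjusted p = 0.138), and 1.37 ± 0.39 (adjusted p = 0.0203) with the replicate number as a block. At 48 h off drug SERPINB8 in KO cells differed from DMSO by -1.25 ± 0.60 (adjusted p = 0.146), and by -1.47 ± 0.38 (adjusted p = 0.00446) with the block.

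**Figure D3:**
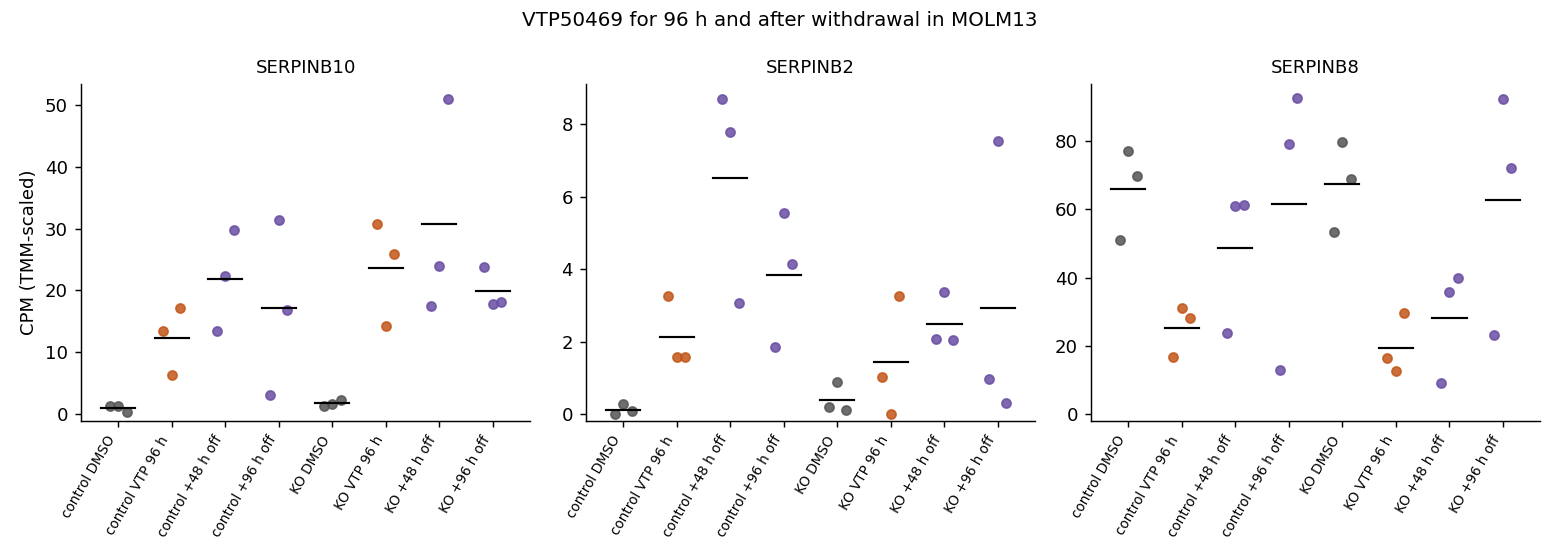
CPM of SERPINB10, SERPINB2 and SERPINB8 in MOLM13 (vertical axis, from 0, one scale per gene) under DMSO, after 96 h of VTP50469 and 48 h or 96 h after its withdrawal, in control and PCGF1/BCOR KO cells (horizontal axis); points are libraries (n = 3) and lines are group means. SERPINB10 at 96 h off drug is at 3.06 to 31.4 in control and 17.8 to 23.8 in KO cells, above all DMSO libraries, which reach 2.24.

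In this experiment the genotypes were not called apart for any member in any of 16 comparisons. SERPINB10 differed by 0.82 ± 0.60 under DMSO and 0.96 ± 0.59 after 96 h of drug (KO minus control), SERPINB2 by -0.37 after 96 h of drug and SERPINB8 by 0.03 ± 0.59 under DMSO. PCGF1 (0 to 11.8 CPM) and BCOR (10.1 to 24.3 CPM) did not separate the genotypes either, and the DMSO libraries were the deepest. The change on withdrawal was not called different between genotypes (SERPINB10 -0.78 ± 0.82, SERPINB8 0.34 ± 0.85, edgeR adjusted p = 1.0 for both). The share of all genes called was 24.2% in control and 27.7% in KO cells after 96 h of drug, where 4 of 8 member comparisons were called (3 higher and 1 lower). Against DMSO it was 12.2% and 3.02% at 48 h and 96 h off drug in control cells and 15.1% and 0.353% in KO cells, where 6 of 16 member comparisons were called, all higher and all of SERPINB10 or SERPINB2, which passed the filter through the groups in which they are high. Against the end of treatment, 0.00% and 0.0314% of all genes were called in control cells and 0.0314% and 0.118% in KO cells, and of the members' 16 such comparisons 0 were called by edgeR; KO against control called 1.22%, 0.793%, 1.37% and 1.36% over the 4 conditions. At an unadjusted p under 0.05, 3 of those 16 and 0 of the 16 genotype comparisons passed, and DESeq2 called 0 of each. These counts leave out the pairing by replicate number. With that number as a block, SERPINB8 in KO cells was called lower than DMSO at 48 h off drug. It was also called higher than the end of treatment at 96 h off drug. SERPINB2 in KO cells was then called higher than DMSO at 48 h off drug.

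Scaling by library size moved the median of all genes by 0.57 (control) and 0.44 (KO) after 96 h of drug, so the changes above are relative to TMM scaling. Myeloid marker sums in control cells went from 652 to 1224 CPM under DMSO to 2451 to 3786 CPM after drug and 1867 to 10305 CPM at 96 h off drug, and in KO cells from 1718 to 2792 CPM under DMSO to 1549 to 2412 CPM after drug and 1599 to 4700 CPM at 96 h off drug; their part was not tested.

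In the erythroid lines only chromosome 6 members had enough reads to be tested, so these lines cannot set the clusters apart. K562 expressed SERPINB6 at 367, 384, 416 and 361 CPM under DMSO and at 313, 300, 317 and 304 CPM under SGC0946 (-0.31 ± 0.07, called, no overlap). SERPINB1 went from 76.4, 67, 77.9 and 63.8 CPM to 49.8, 35.1, 46.9 and 48 CPM (-0.66 ± 0.11, called, no overlap). SERPINB9, the granzyme B inhibitor, was at 19.7 to 24.3 CPM and 20.9 to 27.7 CPM (0.15 ± 0.13, not called), its highest levels among the human lines. SERPINB2, SERPINB8 and SERPINB10 had at most 3 counts per K562 library. Of all genes, 34.9% were called in K562.

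In HuDEP-2 cells SERPINB6 was higher under SGC0946. It read 10, 12.4, 15.8 and 13.8 CPM under DMSO and 54.2, 48.3, 54.8 and 54.7 CPM under SGC0946 (2.02 ± 0.15, called, no overlap). SERPINB9 had 0 counts in all 4 DMSO libraries and 18, 17, 16 and 8 counts under SGC0946 (1.98, 1.76, 1.99 and 0.953 CPM), at least 14.9-fold higher and called; it passed the filter only through the SGC0946 libraries. SERPINB1 was at 0.477 to 1.97 CPM and not tested, and 8.16% of all genes were called. 

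SERPINB6 and SERPINB9 were the members tested in this line. Their promoter windows (GRCh38, minus strand, 5′ to 3′ on the gene's strand) are shown with each CpG in capitals. The SERPINB6 window is at chr6:2971518-2971817 with 32 and that of SERPINB9 at chr6:2903260-2903559 with 35.
SERPINB6: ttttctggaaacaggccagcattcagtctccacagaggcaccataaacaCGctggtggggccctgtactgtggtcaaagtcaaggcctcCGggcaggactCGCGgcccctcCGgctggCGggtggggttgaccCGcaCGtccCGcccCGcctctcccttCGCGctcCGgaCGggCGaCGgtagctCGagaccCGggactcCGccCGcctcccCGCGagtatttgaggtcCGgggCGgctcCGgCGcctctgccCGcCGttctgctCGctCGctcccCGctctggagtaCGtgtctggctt
SERPINB9: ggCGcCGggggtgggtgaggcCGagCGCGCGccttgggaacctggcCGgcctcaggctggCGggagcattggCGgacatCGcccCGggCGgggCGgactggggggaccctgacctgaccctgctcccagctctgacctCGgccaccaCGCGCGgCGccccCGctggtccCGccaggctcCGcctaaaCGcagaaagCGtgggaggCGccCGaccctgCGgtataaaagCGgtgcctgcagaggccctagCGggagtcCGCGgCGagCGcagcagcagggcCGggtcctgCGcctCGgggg

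In HuDEP-2 cells, myeloid marker sums were 21.8 to 31.9 CPM under DMSO and 29.2 to 41.1 CPM under SGC0946, and their part was not tested. Erythroid markers in K562 went from 3093 to 3663 CPM under DMSO to 4074 to 5225 CPM under SGC0946 as a summed level.

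The HuDEP-2 differentiation experiment gave the same direction for SERPINB6 in other libraries, at very different levels. Its undifferentiated DMSO cells averaged 0.27 CPM, against 13.0 CPM in DMSO cells of the 168 h experiment above. Its undifferentiated SGC0946 cells averaged 8.41 CPM, also below those DMSO cells. The reason for this gap between experiments was not tested. Undifferentiated cells read 0, 0.182 and 0.628 CPM after DMSO and 6.59, 8.74 and 9.89 CPM after SGC0946 (4.79 ± 0.47, called), and differentiated cells 0.0959, 0.426 and 0.0778 CPM and 13.8, 11.8 and 12.8 CPM (6.01 ± 0.49, called); here SERPINB6 passed the filter only through the SGC0946 libraries. Differentiation itself was not used to choose the genes: after SGC0946 all differentiated libraries lay above the undifferentiated ones, by 0.60 ± 0.31 (edgeR adjusted p = 0.218), and after DMSO the difference was -0.62 ± 0.84 (adjusted p = 0.667). Whether the SGC0946 effect changed with differentiation was not called (1.22 ± 0.91, adjusted p = 0.756). SERPINB9 had 4 counts in 1 differentiated SGC0946 library and 0 in the other 11. Of all genes, 3.86% and 8.38% were called for SGC0946 in undifferentiated and differentiated cells, 15.7% and 13.2% for differentiation after DMSO and after SGC0946, and 0.477% for the change of the SGC0946 effect.

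**Figure D4:**
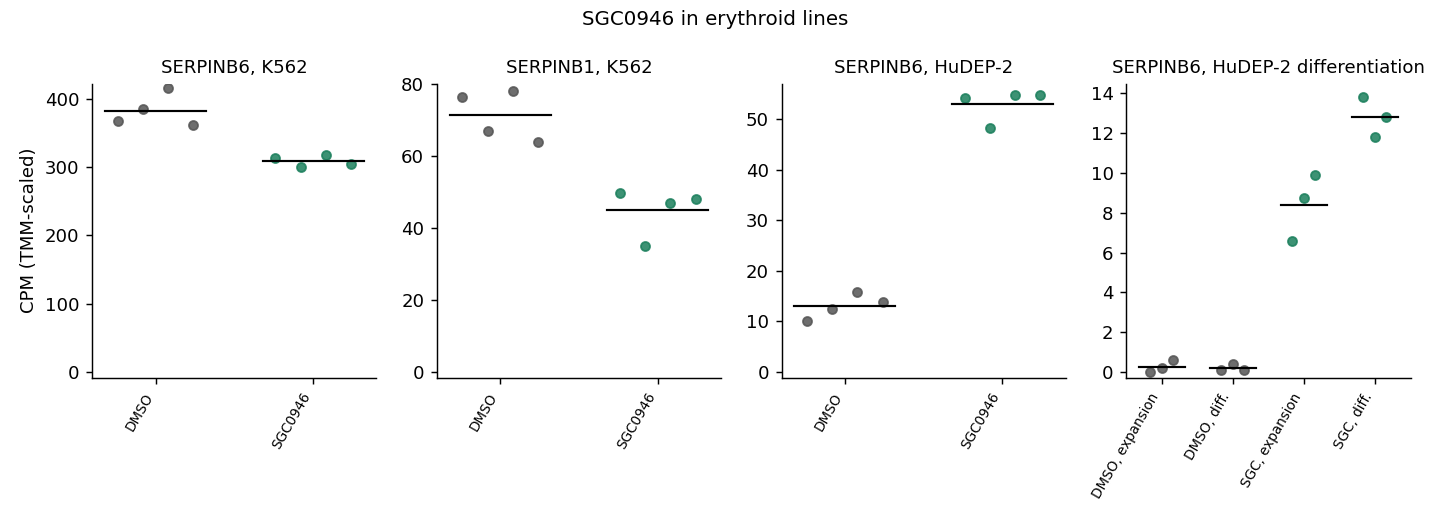
CPM of SERPINB6 and SERPINB1 in K562 and of SERPINB6 in HuDEP-2 cells (vertical axis, from 0, one scale per panel) under DMSO or SGC0946 (horizontal axis; in the last panel "expansion" is undifferentiated and "diff." differentiated); points are libraries (n = 4, or 3 in the differentiation experiment) and lines are group means. SERPINB6 is at 361 to 416 CPM under DMSO and 300 to 317 CPM under SGC0946 in K562, and at 10 to 15.8 CPM and 48.3 to 54.8 CPM in HuDEP-2.

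Of the 4 mouse rows of the same name, Serpinb10 was the only 1 with enough reads to be tested in the first murine experiment. The annotation (GRCm38) lists it as a polymorphic pseudogene. Serpinb10 (chromosome 1, 107529003 to 107549271) overlaps Serpinb2 (107511423 to 107535478) on the same strand, and reads in the overlap cannot be split between them. In control cells of that experiment Serpinb10 read 0.361, 0 and 0.445 CPM under DMSO and 4.44, 1.78 and 6.17 CPM under SGC0946 (3.80 ± 0.78, called). Under VTP50469 it read 1.37, 0.833 and 0.988 CPM after 8 h (1.85 ± 0.87, not called) and 3.52, 2.4 and 3.59 CPM after 48 h (3.44 ± 0.79, called). The 48 h libraries were all above the 8 h libraries, by 1.59 ± 0.62 (edgeR adjusted p = 0.119). Serpinb10 passed the filter on low counts here only through the SGC0946 and 48 h VTP50469 libraries. Of all genes, 5.41%, 0.125% and 11.9% were called under SGC0946 and after 8 h and 48 h of VTP50469, and 9.48% between 48 h and 8 h.

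The murine withdrawal experiment added PCGF1 KO cells. Serpinb10 in control cells was at 0 in all DMSO libraries, at 0.354, 1.35 and 0 CPM after 8 h of VTP50469 (not called) and at 2.25, 1.25 and 0.985 CPM after 48 h (called, at least 6.2-fold higher). At 72 h off drug it read 2.54, 1.56 and 2.47 CPM, at least 9.48-fold above DMSO (edgeR adjusted p = 0.00125), and 0.57 ± 0.76 from the end of treatment (adjusted p = 0.596). Serpinb10 passed the filter only through treated and withdrawn control libraries, which are those set against DMSO here. Without the filter the edgeR adjusted p against DMSO was 0.000462, with the choice of genes unchanged. In PCGF1 KO cells it read 0.269, 0.541 and 0 CPM under DMSO and 0.384, 0.176 and 0.162 CPM after 48 h of drug (-0.18 ± 1.43, not called). Against control the knockout differed by -2.54 ± 1.01 after 48 h of drug, not called, and by -3.15 ± 1.1 and -4.0 ± 1.11 at 48 h and 72 h off drug, both called and without overlap; the 48 h call was lost without control replicate 2 or 3 or KO replicate 1 or 3. Myeloid marker sums, over the 11 of 19 markers with a mouse row, were 102 to 115 CPM under DMSO, 458 to 471 CPM after 48 h of drug and 9230 to 10124 CPM at 72 h off drug in control cells, against 82.9 to 103, 259 to 305 and 179 to 218 CPM in PCGF1 KO cells, with Mnda at 0; their part in these values was not tested.

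**Figure D5:**
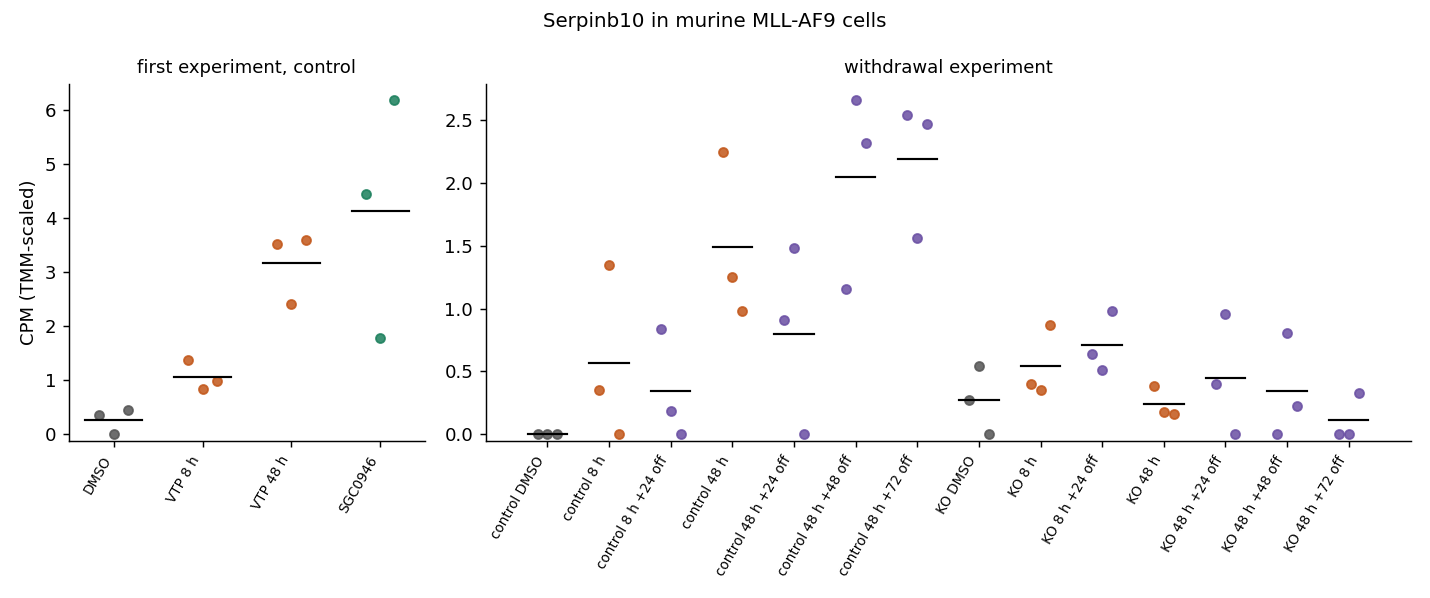
CPM of Serpinb10 in murine MLLAF9 cells (vertical axis, from 0) under DMSO, SGC0946, VTP50469 and after VTP50469 withdrawal (horizontal axis; hours off drug marked "off"), for control cells of the first experiment and for control and PCGF1 KO cells of the withdrawal experiment; points are libraries (n = 3) and lines are group means. At 72 h off drug control libraries are at 1.56 to 2.54 and KO libraries at most 0.328.

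Serpinb8 was at 0 in all control libraries at 72 h off drug and at 0.952, 1.23 and 0.657 CPM in PCGF1 KO libraries, at least 4.46-fold higher and called; it passed the filter only through 2 PCGF1 KO DMSO libraries. Serpinb9 was not called in any murine comparison, and Serpinb2 had at most 5 counts per library. Of all genes, 6.67% and 23.2% were called after 8 h and 48 h of drug in control cells and 12.4% after 48 h in KO cells, 37.2% and 41.6% at 72 h off drug against the end of treatment and against DMSO, and 5.61%, 9.77%, 35.1% and 41.1% for KO against control under DMSO, after 48 h of drug, and 48 h and 72 h off drug. In ESC, Serpinb9 differed by 0.48 ± 0.57 under SGC0946, not called (22.0% of all genes were), and Serpinb2 and Serpinb10 were at 0 counts.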

How the data were processed

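RNA was measured by 3′ sequencing (3′ Pool-seq or Lexogen libraries). The authors demultiplexed with bcl2fastq, trimmed with bbmap, aligned with STAR to GRCh38 or GRCm38 and deposited raw read counts per gene; the labels' builds are hg38 and mm10. Of 231 library columns, 159 matched a labelled sample and 72 were not used; 21 of 180 labelled samples had no column used. Ensembl IDs were matched to symbols with GENCODE release 44 (81.8% of 63152). Rows that name no gene held 21.4% to 48.6% of reads in the MOLM13 and MV4;11 knockout experiments. In the other human experiments they held at most 0.000815%. All such rows were left out. No library was a copy of another.

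Genes reaching 2 CPM in 2 or more libraries (the study's own filter) were tested with edgeR 4.0.16 (quasi-likelihood, TMM scaling) in R 4.3.3, in one model per table, with Benjamini-Hochberg adjustment over all genes of a comparison. Printed CPM are per TMM-scaled library total. A group at 0 was given a floor of 3 counts over the group, and such bounds cover counting error only. The members and gene lists were chosen with earlier results of these data known. The genes named are all 6 members, PCGF1 and BCOR, list genes called where a member was called (at most 5 per list and comparison by size) and the 3 genes most like each member with at least 5 mean CPM. Alternatives were library size scaling, DESeq2 1.42.0, no filter, fitting only the groups compared, leaving out each library or those under 1000000 counts, and the replicate number as a block. Same-numbered libraries deviated together in the MOLM13 withdrawal experiment (correlation 0.14 to 0.96). They also did so in the HuDEP-2 differentiation experiment (0.44 to 0.84) and the first murine experiment (0.30 to 0.85). The reported model nevertheless held group only. Calls and adjusted p leave this pairing out unless the block is named. The fits were checked on simulated counts.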

Additional observations from a re-analysis of the deposited data

Results flagged for a closer look

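Dixon's test marked 4 values in 22 groups of 4 libraries, and chance alone marks about 1 in 20 groups: SERPINB2 at 0.269 CPM in 1 K562 DMSO library, SERPINB6 at 48.3 CPM in the lowest HuDEP-2 SGC0946 library, SERPINB10 at 0.124 CPM in 1 HuDEP-2 SGC0946 library and SERPINB8 at 0.144 CPM in 1 HuDEP-2 DMSO library. Apart from SERPINB6, the other 3 libraries of the group hold 0 counts, so that any count (2, 1 and 1 here) is marked whatever its size.

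Some log2 differences from DMSO ran in opposite directions in different lines, with all libraries on one side each time; the difference between lines was not tested. SERPINB1 under SGC0946 was higher by 0.20 in MOLM13 control and 0.29 in MV4;11 control cells and changed by -0.66 in K562. SERPINB6 under SGC0946 changed by -0.31 in K562 and was higher by 2.02 in HuDEP-2, by 4.79 in undifferentiated and by 6.01 in differentiated HuDEP-2 cells. The DMSO levels behind these HuDEP-2 values differed widely between the experiments, as given above. SERPINB1 under VTP50469 was higher by 0.21 in MOLM13 control, 0.20 in BCOR KO and 0.26 in MV4;11 control cells (48 h) and changed by -0.88 in MOLM13 PCGF1/BCOR KO cells (96 h).

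SERPINB8 under VTP50469 was higher by 0.41 in MOLM13 control, 0.79 in MOLM13 PCGF1 KO, 0.24 in MV4;11 control and 0.67 in MV4;11 PCGF1 KO cells at 48 h, and changed by -1.39 in control and -1.75 in PCGF1/BCOR KO cells at 96 h in the MOLM13 withdrawal experiment. The MV4;11 control values of SERPINB1 and SERPINB8 turn negative under library size scaling. Treatment time and experiment change together between these MOLM13 values and cannot be told apart.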

How the results depend on the processing

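No call of a member changed sign under any alternative that could be fitted. The number of member calls was 28 to 30 in the MOLM13 knockout experiment over the settings (30 as reported; 27 to 31 leaving out 1 library), 12 to 18 in MV4;11 (16 as reported; 14 to 17), and 9 to 16 in the MOLM13 withdrawal experiment (10 as reported; 8 to 10). With the replicate number as a block, 16 calls were made in the MOLM13 withdrawal experiment; added were SERPINB2, SERPINB8 and SERPINB1 changes at 96 h of drug and the values given above. The block changed no count of calls elsewhere (30 in MOLM13, 16 in MV4;11, 2 each in K562, HuDEP-2, HuDEP-2 differentiation and the first murine experiment, 5 in the murine withdrawal experiment, 0 in ESC). In the MOLM13 knockout, MV4;11 and murine withdrawal experiments some same-numbered pairs did not deviate together. Most MOLM13 knockout libraries (22 of 27, correlations -0.34 to 0.47) were still closest to their own number. All murine withdrawal libraries were too (42 of 42, -0.39 to 0.55), so numbers carry some pairing in both experiments. In MV4;11 only 4 of 18 libraries were closest to their own number (-0.36 to 0.31). Leaving out 1 library gave 4 to 6 calls in the murine withdrawal experiment. Library size scaling gave 12 calls in MV4;11. Levels under 1 CPM rest on a handful of counts, so absence of a call for SERPINB2, SERPINB9 or Serpinb10 there was not a measure of absence.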

Other observations

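Mouse has several paralogues in place of SERPINB1 and SERPINB6, which are not rows of the same name. Serpinb1a, an inhibitor of neutrophil elastase, stood at 598 ± 19.5 CPM (SD, n = 3) under DMSO in control MLLAF9 cells of the first murine experiment, at 758 ± 58.9 CPM under SGC0946, at 683 ± 52.2 CPM after 8 h and at 1164 ± 134 CPM after 48 h of VTP50469. Serpinb6a stood at 8.31 to 29.9 CPM over the same libraries. These are values without a test.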
